A study of Mus musculus with 288 samples.

Results

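The adrenergic receptors are the cell surface proteins through which noradrenaline and adrenaline act. The rows of 8 receptor genes were taken from the gene tables by symbol, of 35904 genes in all: the alpha-1 receptors Adra1a, Adra1b and Adra1d, the alpha-2 receptors Adra2a, Adra2b and Adra2c, and the beta receptors Adrb1 and Adrb3. RNA-seq was done on male wild type C57BL/6J mice that were 8 weeks old and had been kept for 7 days either in normoxia or in intermittent hypoxia (IH), in which the oxygen in the air cycles, here between 21 and 8% during the light phase. Mice of both treatments then spent 2 days in constant darkness in normoxia, and lung, heart, skeletal muscle, kidney, liver and cerebellum were collected over the second of these days at 8 labelled times, from 1:30 to 22:30 in steps of 3 h. With 3 replicates per time, each tissue had 24 normoxia and 24 IH libraries, or 288 libraries in all. Because collection followed the exposure by a stay in normoxia, the comparisons are between mice after IH and mice after normoxia, not during hypoxia.

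Alpha-1 receptors signal mainly through Gq proteins and phospholipase C beta, which raise calcium in the cell and contract vascular smooth muscle, and in the liver they drive glycogen breakdown. Alpha-2 receptors signal through Gi proteins, lower cAMP and, on nerve endings, hold back the release of noradrenaline. Beta receptors signal through Gs proteins and adenylyl cyclase: Adrb1 is the main receptor by which sympathetic nerves raise the rate and force of the heartbeat, and Adrb3 is best known for driving lipolysis in fat cells.

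Values are TPM, the share of a library's transcripts that a gene takes after division by transcript length, so levels can be compared between receptors. The number of reads behind a value is unknown from TPM. A receptor was tested for a change with IH in a tissue where its mean over the 48 libraries was at least 1 TPM, which 30 of the 48 pairs of a receptor and a tissue were. Changes are differences of log2(TPM + 0.5), IH less normoxia, after each library was scaled by the median of ratios within its tissue, and this scale understates the change of low genes. A pair is called changed at an adjusted p of at most 0.05 and a change of at least 1.5-fold in limma, a linear model fitted to all genes of the tissue. By the study's methods the replicates of a time and treatment were separate mice. Several organs were taken from each group of mice, so libraries of different tissues may share a mouse, which the tests between tissues do not model. In whole tissue, fewer cells of a type and less RNA per cell cannot be told apart.

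Some libraries stood apart from their label. The liver IH library of 13:30 replicate 2 had its highest correlation with the mean of heart (r = 0.928, against 0.760 with liver). It held the lowest Adra1b of all liver libraries, at 4.34 TPM, and the highest Adrb1 and Adra1d, at 2.54 and 1.46 TPM. In cerebellum, 10 normoxia and 4 IH libraries held marker transcripts of another tissue at over 5% of their level there, at most 16.4% in normoxia and 38.8% in IH. The number of genes above 0 TPM also differed between the treatments, at 22694 ± 737 in normoxia and 25455 ± 1529 in IH in lung (SD, n = 24 each) and 25124 ± 1719 and 21447 ± 688 in heart. In heart the ranges did not overlap, at 22988 to 28331 in normoxia and 20316 to 22793 after IH. A fit with this number as a covariate therefore cannot separate it from treatment in heart. Levels and results that these libraries move are given with and without them, and the fit with genes detected as a covariate is given where it changed a call.

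The 8 genes lie apart in the mouse genome (GRCm38 coordinates, GENCODE annotation). Adra1a is at chr14:66635251-66771168 on the plus strand, Adra1b at chr11:43774606-43901210 on the minus strand and Adra1d at chr2:131545850-131562283 on the minus strand. Adra2a is at chr19:54044151-54048982, Adra2b at chr2:127363208-127367221 and Adra2c at chr5:35278319-35281763, all on the plus strand. Adrb1 is at chr19:56722199-56733113 on the plus strand and Adrb3 at chr8:27225776-27250616 on the minus strand. Of these, Adra1d overlaps the antisense gene Gm14285 by 670 bases and Adrb3 overlaps the antisense gene Gm45470 by 11647 bases. The libraries were made with a directional kit, but the strand setting of the quantification is not given in the sources used here, so reads of the paired strands may not have been told apart. Gm14285 and Gm45470 were not analysed here.

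RefSeq promoter windows of the GRCm38.p6 build were found for 5 of the 8 receptors (Adra1b, Adra2a, Adra2b, Adra2c and Adrb1). No window of Adra1a, Adra1d or Adrb3 was found in the set of windows used here. The 250 bases before each start were searched on both strands for 4 motifs: the E-box CACGTG, which the core clock factors bind, the hypoxia response core ACGTG, which is contained in CACGTG, the cAMP response element TGACGTCA and the D-box TTATGTAA. Among all 32851 windows of this length, 6.02% held the E-box, 16.6% ACGTG, 1.55% the cAMP response element and 0.819% the D-box. Only Adra2c and Adra2a held any of them, in each case the E-box together with the ACGTG inside it. The E-box with 12 bases on either side is shown for these alpha-2 receptors, since Adra2c was called changed in cerebellum, as described further on, and Adra2a was not. The capitals mark the E-box, which begins 152 bases before the RefSeq start of Adra2c and 80 bases before that of Adra2a, and both stretches (chr5:35278402-35278431 and chr19:54045167-54045196, plus strand) lie in the 5′ UTR of a longer annotated transcript. A match of letters is a description and not a binding site.
Adra2c: caactcaggccaCACGTGacagaacctctg
Adra2a: gggtcgacttccCACGTGggggctgacgcc

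In normoxia, each tissue had its own receptor set. The summed TPM of the 8 receptors was highest in lung, at 66.2 ± 9.08 (SD, n = 24), followed down to cerebellum, at 25.4 ± 11.2, and heart, at 24.1 ± 8.09. Without the cerebellar libraries over 5% cerebellum was lowest, at 19.3 ± 3.79 (n = 14). Adrb1 made up 69.6 ± 4.08% of the sum in lung, Adra1b 78.7 ± 5.77% in liver, Adrb3 76.9 ± 6.73% in muscle and Adra2b 62.0 ± 5.69% in kidney. In heart the sum was shared by Adra1b (36.3 ± 7.47%) and Adrb1 (29.9 ± 5.34%), with Adrb3 at 12.8 ± 11.7%. In cerebellum Adra2a made up 19.4 ± 7.58% and Adra2c 17.9 ± 8.03%. Without the libraries over 5% these shares were 22.48 ± 5.196% and 23.1 ± 5.24%.

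**Figure D1:**
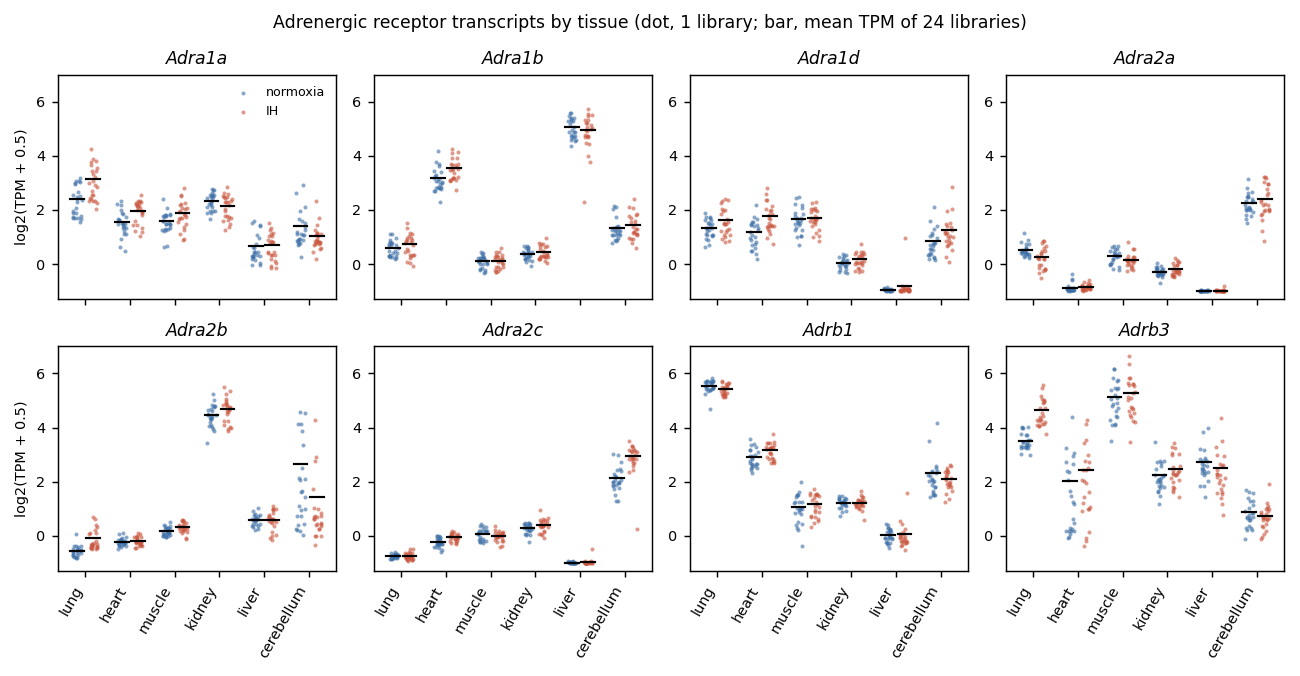
Levels of the 8 receptors on the log2(TPM + 0.5) scale (y axis) in the 6 tissues (x axis), normoxia in blue and IH in red; each dot is 1 library and each bar is the log2 of the mean TPM of 24 libraries plus 0.5. Adra1b stands highest in liver (mean 32.6 TPM in normoxia), Adra2b in kidney (21.8), Adrb1 in lung (46.1) and Adrb3 in muscle (34.9), while Adra2b in cerebellum and Adrb3 in heart spread over more than 4 log2 units.

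The order of the tissues was tested in limma over all normoxia libraries, in which 82.9% of all comparisons between tissues passed at an adjusted p of 0.05. Against that background, 111 of the 120 comparisons of the receptors passed, and 32 of the 40 steps between neighbours in the order of levels. The order of the lowest levels carries little, since 0.5 TPM was added before the log.

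Of the alpha-1 receptors, Adra1a was highest in lung (4.80 ± 2.04 TPM, SD, n = 24) and kidney (4.55 ± 1.05 TPM). These neighbours did not differ beyond their spread (adjusted p = 0.997), and kidney was the higher of them (log2 difference, lung less kidney, of -0.61) when all normoxia libraries were scaled by the median of ratios. Muscle (2.48 TPM), heart (2.47 TPM) and cerebellum (2.17 TPM) followed without a step that passed, and liver was lowest at 1.08 TPM. Without the libraries over 5% cerebellum was at 1.54 TPM, and the step from heart to cerebellum passed (0.52, adjusted p = 0.000758). Adra1b, the main alpha-1 receptor of mouse liver, was at 32.6 ± 8.31 TPM there and 8.53 ± 2.89 TPM in heart, a difference of 1.89 ± 0.09 on the log2 scale (adjusted p = 2.13e-43). It was far lower in cerebellum (2.01 TPM), lung (1.02 TPM), kidney (0.795 TPM) and muscle (0.572 TPM). Adra1d, which is known from large arteries, was at 2.71 ± 1.04 TPM in muscle, 2.04 ± 0.58 TPM in lung and 1.78 ± 0.79 TPM in heart. The step from lung to heart did not pass (adjusted p = 0.0778), and the sign of this difference turned to -0.72 with the median of ratios. In liver Adra1d was listed at 0 in 6 of 24 libraries and its mean was 0.0169 TPM.

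Of the alpha-2 receptors, Adra2a and Adra2c were highest in cerebellum, at 4.31 ± 1.34 and 3.94 ± 1.49 TPM (SD, n = 24), and every peripheral tissue had a mean below 1 TPM of each. The next tissue was lung for Adra2a (0.950 TPM) and kidney for Adra2c (0.720 TPM). Adra2b, a receptor known from the kidney tubule, was at 21.8 ± 6.13 TPM in kidney, ranging from 10.3 to 37.7. Its cerebellar mean of 5.79 TPM came second, but the cerebellar libraries spread from 0.530 to 23.3 TPM with a median of 2.41. Without the 10 cerebellar libraries over 5% the mean was 1.58 TPM. Liver had 1.02 ± 0.22 TPM of Adra2b, and the steps from muscle to heart and from heart to lung, all below 1 TPM, did not pass. Both passed without the libraries over 5% (adjusted p = 9.25e-05 and 0.000313).

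Of the beta receptors, Adrb1 was at 46.1 ± 6.62 TPM in lung and 6.98 ± 1.82 TPM in heart (SD, n = 24), a difference of 2.66 ± 0.11 on the log2 scale (adjusted p = 9.23e-50). The level in lung lay above that of 81.3% of the 14682 lung genes averaging 1 TPM or more. Cerebellum came next at 4.501 TPM, or 3.17 TPM without the libraries over 5%, and kidney (1.84 TPM) and muscle (1.60 TPM) did not differ beyond their spread (adjusted p = 0.0570). Adrb3 was at 34.9 ± 16.9 TPM in muscle, 11.0 ± 2.52 TPM in lung, 6.08 ± 3.04 TPM in liver, 4.25 ± 1.86 TPM in kidney, 3.55 ± 4.47 TPM in heart and 1.37 ± 0.64 TPM in cerebellum (0.982 ± 0.333 without the libraries over 5%). All 5 steps of this order passed, though lung fell behind liver (log2 difference, lung less liver, of -0.52) with the median of ratios. Fat cell markers moved with Adrb3 in several tissues. The summed level of the 6 adipocyte markers Adipoq, Plin1, Cidec, Lep, Cfd and Retn ran from 1748 to 10654 TPM over the normoxia libraries of muscle, 162 to 605 TPM in kidney, 22.1 to 1397 TPM in heart and 3.23 to 16.3 TPM in liver. As a description over the 48 libraries of a tissue, which share its dissection, the Pearson r of Adrb3 with this sum was 0.917 in heart, 0.695 in muscle, 0.630 in kidney and 0.0991 in liver. The part of fat in the dissected tissue in these levels was not tested.

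The question of the main comparison was which receptors differ after IH from normoxia in the mean over the day. Over the 6 tissues 4.26% of all tested genes were called changed, from 0.374% in muscle, 0.783% in kidney, 2.64% in cerebellum, 2.95% in heart and 3.65% in liver to lung, where 9.09% were called higher and 4.39% lower. Of the 30 pairs, 2 were called, Adrb3 in lung and Adra2c in cerebellum, both higher after IH. At an adjusted p of 0.05 without a fold limit, which 31.8% of all tests met, 7 of 30 pairs passed, 6 higher and 1 lower. The additional pairs were Adra1a and Adrb1 in lung, Adra1a and Adra1d in heart, and Adra1d in cerebellum. In lung 70.4% and in heart 45.2% of all genes met the adjusted p alone. The 23 pairs that did not pass ranged from -0.94 to 0.38 on the log2 scale. No receptor passed in muscle, kidney or liver, where 10.4%, 19.8% and 24.2% of all genes did. Without the libraries over 5% the count of called pairs was again 2, and 6 pairs met the adjusted p.

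**Figure D2:**
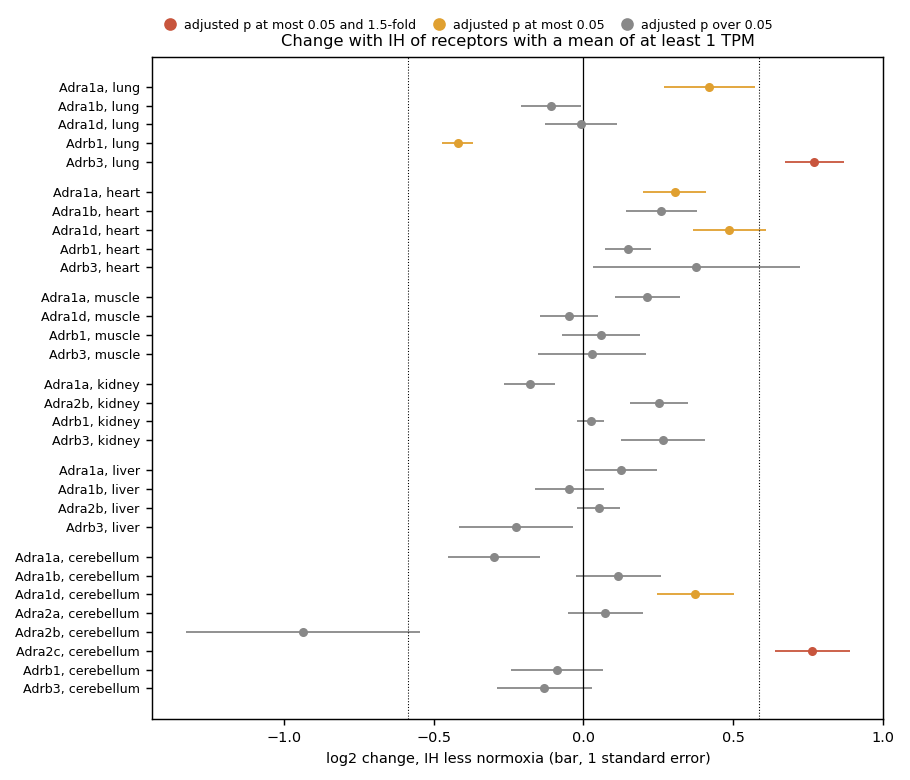
Log2 change with IH (x axis, IH less normoxia) of the 30 receptor and tissue pairs tested (y axis); each dot is the estimate over 48 libraries, each bar 1 standard error, and the dotted lines mark a 1.5-fold change. Adrb3 in lung (0.77) and Adra2c in cerebellum (0.76) lie past the line with an adjusted p of at most 0.05 (red), 5 more pairs have that adjusted p inside the lines (orange), and Adra2b in cerebellum (-0.94) has the widest bar.

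Adra1a, the alpha-1 receptor that contracts resistance vessels, was higher in lung after IH. Its TPM in normoxia ran from 2.45 to 8.64 with a median of 4.54, and after IH from 3.65 to 18.6 with a median of 7.25. The groups overlapped, with 10 of 24 IH libraries above every normoxia library, and the mean was higher after IH at 8 of 8 times. The log2 change was 0.42 ± 0.15 (limma adjusted p = 0.0123, 1.34-fold, so below the fold limit), where 28.9% of lung genes were higher at the adjusted p, beside a median change of all lung genes of -0.08. With TPM as deposited, where the median of all lung genes was 0.21, the change of Adra1a was 0.70 and passed both limits (adjusted p = 0.000204). Replicate numbers mattered: the change was 0.37 without replicate 2 (adjusted p = 0.0845) and 0.20 without replicate 3 (adjusted p = 0.334), and both lost significance, while without replicate 1 it was 0.68 (adjusted p = 0.00124). With genes detected as a covariate it was 0.87 (adjusted p = 0.00117).

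The difference of Adra1a in lung was largest at the labelled times from 19:30 to 1:30. After IH the mean was 4.62 ± 0.87 TPM at 13:30, 8.39 ± 1.70 at 16:30, 12.03 ± 1.54 at 19:30, 14.1 ± 4.501 at 22:30 and 11.0 ± 2.25 at 1:30 (SD over 3 libraries each). In normoxia the same times held 3.31 ± 0.92, 5.99 ± 1.70, 6.40 ± 1.32, 6.10 ± 2.33 and 5.40 ± 3.10 TPM. At 4 of 8 times all 3 IH libraries lay above all 3 normoxia libraries, as they did in 30.8% of all lung gene and time sets. These were 19:30 (10.46 to 13.54 TPM against 5.41 to 7.90), 22:30 (9.62 to 18.6 against 3.43 to 7.67), 1:30 (8.70 to 13.2 against 2.45 to 8.64) and 7:30 (4.502 to 5.43 against 2.83 to 3.74). A cosine curve of 24 hours fitted to TPM gave a mean level (MESOR) of 8.28 ± 0.42 TPM, an amplitude of 4.71 ± 0.60 TPM and a peak time (acrophase) of 21.9 ± 0.49 h after IH, and 4.80 ± 0.35 TPM, 1.69 ± 0.49 TPM and 21.2 ± 1.11 h in normoxia (standard errors, n = 24). The curve passed against a flat line after IH (F test, adjusted p = 0.000228, where 4.47% of genes passed) and missed the threshold in normoxia (adjusted p = 0.132), although it passed there on the log2 scale after the median of ratios (adjusted p = 0.0286). The fitted amplitude was larger after IH by 3.02 ± 0.78 TPM, and the peak times differed by 0.71 ± 1.22 h. In t tests of these parameters the adjusted p was 0.0380 for amplitude and 0.930 for peak time. The adjustment ran over the 1312 lung genes rhythmic in at least 1 treatment, of which 2.82% passed for amplitude. Adra1a was among them only through its rhythm after IH, the treatment with the larger amplitude. This selection favours a larger amplitude after IH, so the adjusted p of 0.0380 is not independent support for it. The joint test of the cosine terms between treatments, adjusted over all lung genes tested, did not pass (n = 48 libraries, p = 0.00134, adjusted p = 0.886). Its unadjusted p was 0.0171 on TPM scaled by the median of ratios, 0.195 on the log2 scale after that scaling and 0.0620 without replicate 3. The amplitude difference itself was tested on TPM as deposited only.

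**Figure D3:**
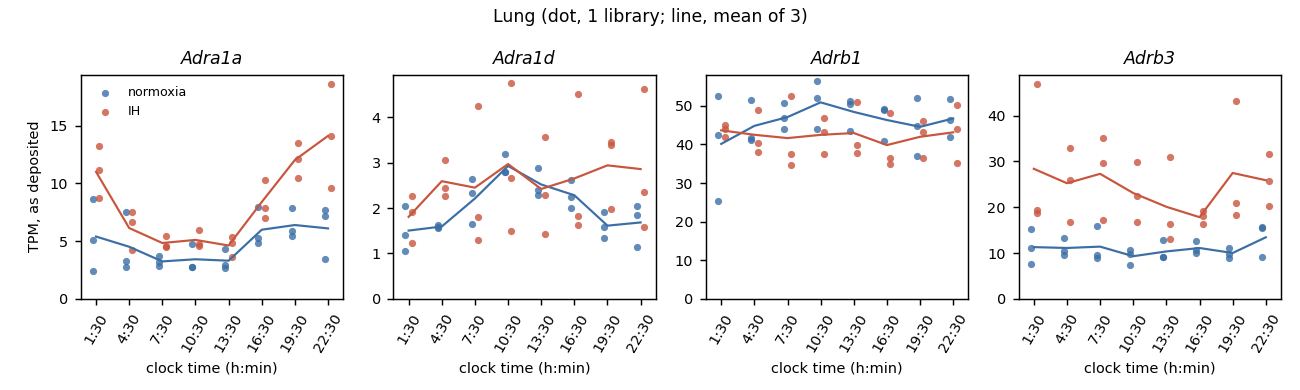
TPM as deposited (y axis) of 4 receptors in lung over the labelled time (x axis), normoxia in blue and IH in red. Each dot is 1 library and each line joins the means of 3. Adra1a after IH runs from a mean of 4.62 TPM at 13:30 to 14.1 TPM at 22:30, the mean of Adrb3 lies higher after IH at every time, and the mean of Adra1d in normoxia is highest at 10:30 (2.93 TPM).

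Adra1d and Adra1a also rose in heart, by less than 1.5-fold. Adra1d ran from 0.653 to 4.03 TPM in normoxia with a median of 1.69, and from 1.18 to 6.46 TPM after IH with a median of 2.53. Adra1a ran from 0.891 to 4.47 TPM in normoxia with a median of 2.31, and from 1.57 to 5.43 TPM after IH with a median of 3.59. Both groups overlapped widely, with 4 and 3 of 24 IH libraries above every normoxia library, and for both the mean was higher after IH at 8 of 8 times. The log2 change was 0.49 ± 0.12 for Adra1d (limma adjusted p = 0.00105) and 0.30 ± 0.10 for Adra1a (adjusted p = 0.0149), where 28.0% of heart genes were higher at the adjusted p, beside a median change of all heart genes of 0.04 (0.15 with TPM as deposited). Smooth muscle markers moved with them: of the 6 markers Acta2, Myh11, Tagln, Cnn1, Smtn and Rgs5, 2 were called higher in heart, Acta2 by 0.76 and Myh11 by 0.75, and their sum ran from 232 to 479 TPM in normoxia and from 293 to 660 TPM after IH. Over the 48 heart libraries, described without a test, Pearson's r with this sum was 0.799 for Adra1d and 0.660 for Adra1a. The part of vessel content in the result was not tested. With genes detected as a covariate the changes were -0.02 for Adra1d (adjusted p = 0.964) and -0.13 for Adra1a (adjusted p = 0.710). With that covariate 257 of all heart genes tested met the adjusted p, against 5780 in the main fit. The number of genes detected did not overlap between treatments in heart, so this fit cannot separate it from treatment. Adra1a also lost significance without replicate 1 (0.16, adjusted p = 0.303) and without replicate 3 (0.32, adjusted p = 0.0524).

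In the other tissues the alpha-1 receptors gave smaller or unsteady values. Adra1b in heart was at 8.53 ± 2.89 TPM in normoxia and 11.2 ± 3.24 TPM after IH (0.26 ± 0.12, adjusted p = 0.0650), with 23 of 24 IH libraries above the normoxia median. Adra1b in liver was at 32.6 ± 8.31 and 30.7 ± 11.1 TPM (-0.05 ± 0.12, adjusted p = 0.801). Adra1a gave 0.21 ± 0.11 in muscle (adjusted p = 0.225), -0.18 ± 0.09 in kidney (0.134) and -0.30 ± 0.15 in cerebellum (0.182). In cerebellum Adra1d rose from 1.30 ± 0.74 to 1.90 ± 1.25 TPM (0.37 ± 0.13, adjusted p = 0.0416), where 9.76% of genes were higher at the adjusted p. This was lost without the libraries over 5% (0.22, adjusted p = 0.452), with TPM as deposited (0.37, adjusted p = 0.149), and without replicate 1 (0.30, adjusted p = 0.336) or replicate 2 (0.27, adjusted p = 0.627).

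Adra2c, an alpha-2 receptor found on nerve cells and their endings, was higher in cerebellum after IH, where 2.64% of genes were called and 1.48% were called higher. In normoxia it ran from 1.93 to 7.70 TPM with a median of 3.51, and after IH from 0.707 to 10.8 TPM with a median of 7.17. The groups overlapped at their edges: 10 of 24 IH libraries lay above every normoxia library, 23 of 24 above the normoxia median, and the mean was higher after IH at 8 of 8 times. The 1 IH library below all of normoxia, at 0.707 TPM, was replicate 3 of 1:30, which also held cardiomyocyte markers at 38.8% of their heart level. The log2 change was 0.76 ± 0.13 (limma adjusted p = 4.01e-05, 1.70-fold), and with the 14 normoxia and 20 IH libraries under 5% it was 0.66 ± 0.11 (adjusted p = 0.000474). Over the 24 libraries of each treatment, r with the summed cardiomyocyte markers was -0.632 in normoxia and -0.566 after IH, and r with the cerebellar neuron markers was 0.542 and 0.799. Its change in the other tissues was not tested in the main fit, since the mean of Adra2c there was below 1 TPM.

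The replicate numbers of cerebellum did not give the same result for Adra2c. Its mean over the 8 times was 3.28, 3.20 and 5.34 TPM for replicates 1, 2 and 3 of normoxia, and 7.83, 7.89 and 5.72 TPM for replicates 1, 2 and 3 of IH. Fitted alone, replicate 1 gave a log2 change of 1.11, replicate 2 gave 1.15 and replicate 3 gave 0.05 (adjusted p = 0.985). The call was therefore lost without replicate 1 (0.60, adjusted p = 0.0750) and without replicate 2 (0.58, adjusted p = 0.136), and without replicate 3 the change was 1.12 (adjusted p = 7.41e-11). This split was not particular to Adra2c. Over all cerebellar genes, replicate 1 alone called 918 of 15446, replicate 2 alone 1093 of 14726 and replicate 3 alone 0 of 14419. The main fit called 393 genes, against 67 without replicate 1, 31 without replicate 2 and 1973 without replicate 3. What distinguished the replicate 3 libraries was not tested.

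Adra2b in cerebellum was widely spread. Its TPM ran from 0.530 to 23.3 in normoxia with a median of 2.41, and from 0.295 to 18.9 after IH with a median of 1.05. The mean was lower after IH at 8 of 8 times (5.79 ± 7.31 and 2.23 ± 3.93 TPM, SD, n = 24 each), but the log2 change of -0.94 ± 0.39 did not pass (adjusted p = 0.0968). Its high values came in libraries with transcripts of other tissues: r with the summed cardiomyocyte markers was 0.863 in normoxia and 0.869 after IH (n = 24 each), and r with the kidney tubule markers was 0.948 and 0.914. The kidney tubule markers had a sum of at most 40.7 TPM in cerebellum and at least 33194 TPM in kidney. Heart had 0.364 TPM of Adra2b on average. The part of other tissues' transcripts in the Adra2b values was not tested. Without the libraries over 5% the change was -0.43 (adjusted p = 0.151). Without the 1 IH library of 1:30 replicate 3 it was -1.13 and passed (adjusted p = 0.0176). Adra2a in cerebellum was at 4.31 ± 1.34 and 4.84 ± 2.22 TPM (0.07 ± 0.12, adjusted p = 0.726). In kidney Adra2b was at 21.8 ± 6.13 and 25.6 ± 8.14 TPM (0.25 ± 0.10, adjusted p = 0.0586).

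**Figure D4:**
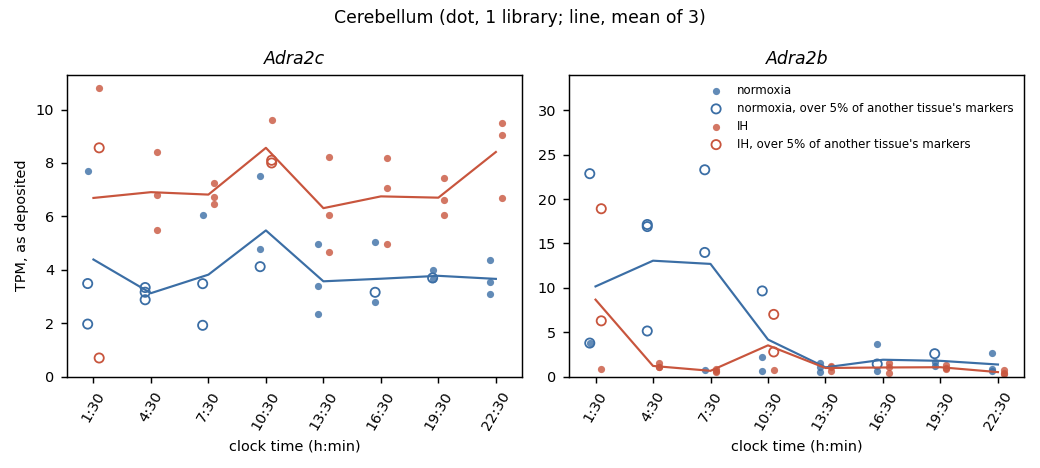
TPM as deposited (y axis) of Adra2c and Adra2b in cerebellum over the labelled time (x axis), normoxia in blue and IH in red. Each dot is 1 library, each line joins the means of 3, and open circles mark the 10 normoxia and 4 IH libraries with over 5% of another tissue's markers. The mean of Adra2c lies higher after IH at every time while single libraries of the treatments overlap, the lowest being 1 open circle at 0.707 TPM, and the highest Adra2b values, up to 23.3 TPM, are open circles between 1:30 and 10:30.

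Adrb3, the beta receptor of fat cells, had the largest change of the 5 receptors tested in lung, where 9.09% of genes were called higher. In normoxia it ran from 7.48 to 15.8 TPM with a median of 10.2, and after IH from 13.0 to 47.0 TPM with a median of 20.6. The groups barely overlapped on TPM as deposited, a scale on which the median log2 change of all lung genes was 0.21. On it 23 of 24 IH libraries lay above every normoxia library. At 8 of 8 times all 3 IH libraries lay above all 3 normoxia libraries, which held in 30.8% of all lung gene and time sets. The log2 change was 0.77 ± 0.10 (limma adjusted p = 2.26e-09, 1.71-fold), and it was 1.07 with TPM as deposited (adjusted p = 1.19e-11). The change held without each replicate number, from 0.68 to 0.91. The alpha-2 receptors averaged below 1 TPM in lung and were not tested there in the main fit. Adra2b had a mean of 0.184 TPM in normoxia and 0.441 TPM after IH, and 8 of 24 IH libraries lay above every normoxia library. Adra2a went the other way, from 0.950 to 0.692 TPM, with 14 of 24 IH libraries below every normoxia library. Adra2c was at 0.0966 and 0.0973 TPM.

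The values beside the Adrb3 result in lung were as follows. Fat cell markers were at similar levels: the adipocyte sum ran from 170 to 936 TPM in normoxia (median 373) and from 187 to 1031 TPM after IH (median 368), and 0 of its 6 markers were called. The number of genes above 0 TPM did move with it, with a Pearson r of 0.846 over 48 libraries, 0.852 over the 24 IH libraries and -0.170 over the 24 normoxia libraries. With that number as a covariate the change was 0.23 and the call was lost (adjusted p = 0.102). Some muscle markers were also higher after IH. Of the skeletal muscle markers Myh1 (1.05) and Ckm (0.86) were called higher, with a summed level of 15.5 to 483 TPM in normoxia and 23.5 to 835 TPM after IH. Of the cardiomyocyte markers Tnni3 and Tnnt2 (0.60 each) were called higher, with sums of 229 to 898 and 332 to 1066 TPM. Over the 24 IH libraries r of Adrb3 was 0.0200 with the skeletal muscle sum and -0.462 with the cardiomyocyte sum, and over the 24 normoxia libraries it was 0.477 and 0.253. The 5 lung epithelium markers Sftpc, Sftpb, Scgb1a1, Ager and Sftpa1 fell with adjusted p of at most 0.05, and 4 of them were called lower. Gm45470, which overlaps Adrb3 on the other strand, was not analysed here, and the part of these markers and of Gm45470 in the result was not tested.

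**Figure D5:**
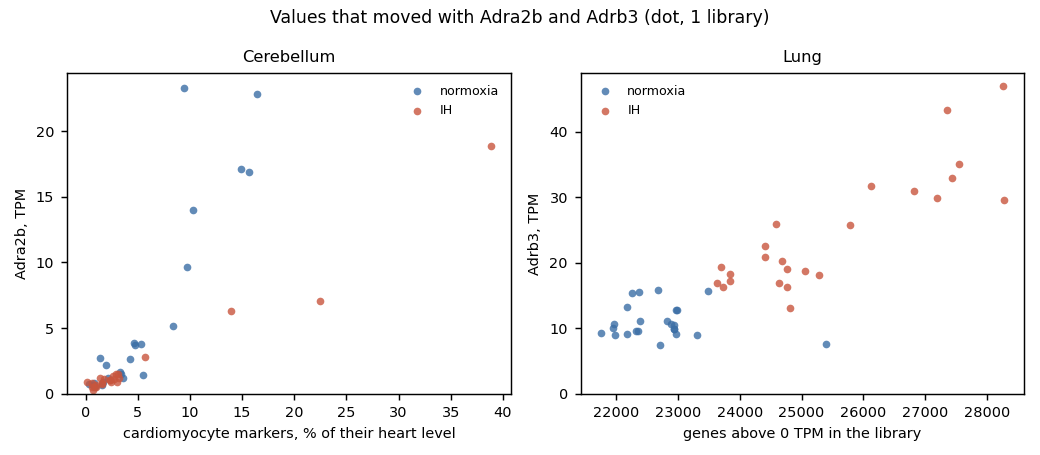
Left, Adra2b in cerebellum (y axis, TPM) against the cardiomyocyte markers as a percent of their level in heart (x axis); right, Adrb3 in lung (y axis, TPM) against the number of genes above 0 TPM (x axis); each dot is 1 library, normoxia in blue and IH in red. Adra2b exceeds 5 TPM only in libraries over 5% of the heart level, and the highest Adrb3 values, up to 47.0 TPM, come in IH libraries with the most genes detected.

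Adrb1, the beta receptor with the highest level in lung, was lower there after IH by less than 1.5-fold. It ran from 25.3 to 56.5 TPM in normoxia with a median of 46.5, and from 34.8 to 52.6 TPM after IH with a median of 42.5. The IH range lay inside the normoxia range, so 0 IH libraries lay below every normoxia library, and the mean was lower after IH at 7 of 8 times. Adrb1 fell by 0.42 ± 0.05 on the log2 scale (limma adjusted p = 9.20e-10), in a tissue where 41.5% of genes were lower at that adjusted p. The scaling set the size: with TPM as deposited the change was -0.12 (adjusted p = 0.0799), and with genes detected as a covariate it was -0.12 (adjusted p = 0.0755). Endothelial markers moved with it. Of Pecam1, Cdh5, Kdr, Tie1 and Emcn, 3 of 5 were called lower in lung, among them Cdh5 by -0.77 and Kdr by -0.76, their sum ran from 398 to 1269 TPM in normoxia and from 482 to 1023 TPM after IH, and r with Adrb1 was 0.813 over 48 libraries. The part of endothelial content in the result was not tested.

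In the other tissues the beta receptors did not pass. Adrb1 in heart was at 6.98 ± 1.82 TPM in normoxia and 8.41 ± 1.80 TPM after IH (0.15 ± 0.08, adjusted p = 0.106), with a higher mean after IH at 8 of 8 times. Adrb3 in heart ran from 0.459 to 20.4 TPM in normoxia and from 0.266 to 19.2 TPM after IH (0.38 ± 0.35, adjusted p = 0.387). Adrb3 in muscle, at 34.9 ± 16.9 and 38.5 ± 20.7 TPM, gave 0.03 ± 0.18 (adjusted p = 0.953), with adipocyte sums of 1748 to 10654 and 2270 to 15422 TPM. The change of Adrb3 was 0.27 ± 0.14 in kidney (adjusted p = 0.173), -0.23 ± 0.19 in liver (0.402) and -0.13 ± 0.16 in cerebellum (0.615).

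Whether a receptor changed by different amounts in 2 tissues was tested as an interaction in limma over the 96 libraries of each pair of tissues. Of all genes tested, 37.4% passed over the 15 pairs of tissues, from 12.8% to 65.2%, and 17 of 55 comparisons of the receptors passed, 11 of them with lung in the pair. The share of genes that passed was 65.2% for lung and heart, 56.8% for lung and muscle, 63.2% for lung and kidney, 52.6% for lung and liver and 49.8% for lung and cerebellum. It was 35.4% for heart and muscle, 40.7% for heart and kidney, 27.9% for heart and cerebellum, 20.0% for muscle and kidney, 19.4% for muscle and cerebellum and 12.8% for kidney and cerebellum. Adrb3 changed more in lung than in muscle (difference of log2 changes 0.74, adjusted p = 0.00154), kidney (0.51, adjusted p = 0.00833), liver (1.00, adjusted p = 7.15e-05) and cerebellum (0.90, adjusted p = 3.63e-05). Against heart, where Adrb3 varied widely, the difference of 0.39 ± 0.36 did not pass (adjusted p = 0.342). Adrb1 went lower in lung than in heart, muscle and kidney, by -0.57, -0.48 and -0.44. With genes detected as a covariate 9 of 55 comparisons passed, and the values for Adrb1 became 0.05 (adjusted p = 0.777), -0.29 (0.107) and -0.25 (0.00131). In heart that covariate cannot be separated from treatment. Adra1a in lung differed from kidney (0.60) and cerebellum (0.72), while its changes in lung and heart were not told apart (0.12 ± 0.19, adjusted p = 0.594). Each tissue's change enters several of these comparisons, which therefore share libraries.

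A 24-hour rhythm was called in 4 of 78 sets of a receptor, tissue and treatment, 2 in normoxia and 2 after IH, where 2.62% of all tests were called; 18 sets had an unadjusted p of at most 0.05. When a rank test and the cosine fit were combined, 9 sets were called. The p-values of that combination are too small, because both tests use the same values. Besides Adra1a in lung after IH, the sets called by the cosine fit were Adra1d in lung in normoxia (adjusted p = 0.00388), Adra2c in kidney in normoxia (adjusted p = 0.00262) and Adra2b in liver after IH (adjusted p = 0.00933). In these sets 3.03%, 8.54% and 2.86% of all genes were called. Adra1d in lung in normoxia ran from a mean of 1.503 ± 0.504 TPM at 1:30 to 2.93 ± 0.23 TPM at 10:30 (SD over 3 libraries), with an amplitude of 0.645 ± 0.106 TPM and a peak at 11.99 ± 0.63 h. After IH its amplitude was 0.216 ± 0.331 TPM, and the amplitude difference of -0.43 ± 0.35 TPM did not pass (adjusted p = 0.424).

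Adra2c in kidney was rhythmic at a low level. Its normoxia means ran from 0.557 ± 0.168 TPM at 1:30 to 0.877 ± 0.036 TPM at 13:30 (SD over 3 libraries), with an amplitude of 0.154 ± 0.025 TPM and a peak at 15.1 ± 0.61 h. No normoxia library reached 1 TPM, and the gene entered the test through the IH libraries, whose maximum was 1.44 TPM. Adra2b in liver after IH ran from 0.611 ± 0.285 TPM at 13:30 to 1.39 ± 0.162 TPM at 22:30, with an amplitude of 0.374 ± 0.068 TPM and a peak at 23.2 ± 0.70 h. Without the library most like heart the mean at 13:30 was 0.715 TPM (n = 2), 10:30 was then lowest at 0.623 TPM, and the rhythm passed (F test across all liver genes, adjusted p = 0.0124). In normoxia the amplitude of Adra2b was 0.0972 ± 0.0620 TPM, and the amplitude difference of 0.276 ± 0.092 TPM did not pass (adjusted p = 0.733). The kidney marker Kap was at 32.8 to 370 TPM in the liver libraries after IH and at 0.387 to 103 TPM in normoxia, and r of Adra2b with the kidney tubule sum was -0.403 over the 24 IH libraries. All 4 calls except Adra1a in lung depended on single replicate numbers: Adra1d had an adjusted p of 0.0703 to 0.0920 without any 1 of them, Adra2b had 0.433 without replicate 1 and 0.0794 without replicate 2, and Adra2c had 0.151 without replicate 3.

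Adra1b in liver followed a similar course in both treatments without passing. Its normoxia means lay between 26.1 ± 2.49 TPM at 13:30 and 39.6 ± 7.44 TPM at 19:30 (adjusted p = 0.167), and after IH between 16.6 ± 14.4 TPM at 13:30, a time that holds the library most like heart (22.8 TPM without it), and 39.1 ± 5.97 TPM at 19:30 (adjusted p = 0.197). No receptor was rhythmic in heart, muscle or cerebellum by the cosine fit. Combined with the rank test, Adrb1 in muscle (adjusted p = 0.0174) and Adra1a (0.0107) and Adra2b (0.0245) in cerebellum passed in normoxia. That combination called 3.90% of all genes in muscle and 6.89% in cerebellum in normoxia. The cerebellar libraries over 5% were not spread evenly over the day. Of the 3 normoxia libraries per time, 1 was under 5% at 1:30, 0 at 4:30, 1 at 7:30, and 2 each at 10:30, 16:30 and 19:30. The fitted normoxia peaks were at 7.79 ± 1.02 h for Adra1a and 5.11 ± 1.02 h for Adra2b. The combined test was not run without these libraries, and their part in the result was not tested. By the cosine fit alone, 0 of 21286 genes in cerebellum in normoxia and 1 of 21181 after IH were called. The joint test of a rhythm difference between treatments called 0 of 39 receptor and tissue pairs and 1 gene over all 6 tissues (0.000984% of tests), and 6 of the 39 pairs had an unadjusted p of at most 0.05.

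The partners of the receptors were read from 8 lists of signalling genes, 52 in all. In lung 48 were tested, 4 were called higher and 1 lower, against 9.09% and 4.39% of all lung genes. The higher ones were Pde4c, a phosphodiesterase that breaks down cAMP (0.93), Grk3, a kinase that desensitises receptors (0.83), Plcb2, a phospholipase C beta (0.80), and Adcy3, an adenylyl cyclase (0.61). The lower one was Maob (-0.69), which degrades amines. In heart, where 2.95% of all genes were called, 1 of 42 was, the adenylyl cyclase Adcy9 (0.70). In muscle, where 0.374% were, 1 of 40 was called, Pnmt (0.80), which makes adrenaline from noradrenaline. None was called in kidney (41 tested), liver (33) or cerebellum (44). By the adjusted p alone, 12 of the 48 in lung were higher and 16 lower, against 28.9% and 41.5% of all lung genes, and 6 of the 9 G protein alpha subunits were lower and 1 higher. These directions turned with the scaling, since with TPM as deposited 28 of the 48 were higher and 5 lower, and 3 of the G protein subunits were higher and 3 lower. All lung genes turned with it too, as 8478 of 15426 were higher and 1655 lower at the adjusted p on that scale. The median log2 change of the signalling genes was -0.04 in lung, 0.15 in heart, 0.01 in muscle, -0.00110 in kidney, -0.06 in liver and -0.05 in cerebellum, beside -0.08, 0.04, -0.00416, -0.00716, -0.00699 and -0.00622 for all genes tested.

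The genes whose normoxia levels were most like those of each receptor were taken by the highest Pearson r of log2(TPM + 0.5) over all normoxia libraries, among 16246 named genes, as a description that mostly reflects the order of the tissues. They were Trdmt1 for Adra1a (r = 0.859), Aldh1b1 for Adra1b (0.951) and Rgma for Adra1d (0.937). For the alpha-2 receptors they were Calm2 for Adra2a (0.958), Tmem52b for Adra2b (0.961) and Tafa5 for Adra2c (0.975). For Adrb1 the transcript BC028528 (0.963) was followed by Pde3a (0.962), a phosphodiesterase of cAMP, and for Adrb3 Serpina3c (0.917) was followed by Acaca and Fasn (0.864 each), enzymes of fatty acid synthesis. Mbp, a myelin protein, stood behind Calm2 and Bcas1 for Adra2a (0.957).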

How the data were processed

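RNA was extracted from 6 tissues and sequenced from poly(A)-selected directional libraries. The authors quantified reads with kallisto, added up the transcripts of a gene and deposited TPM of 35904 genes (mm10 per the submitters' notes, which also name bcl2fastq, FastQC 0.11.3 and DESeq2). The authors tested estimated counts with DESeq2, and those counts were not analysed here. Libraries summed to between 989211 and 999188 TPM, 0 pairs were identical, and depth is unknown from TPM, so no counting intervals are given. Columns were matched to samples by their titles.

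TPM were scaled by the median of ratios within a tissue, and log2(TPM + 0.5) was fitted with limma 3.58.1 (R 4.3.3, eBayes with trend), with treatment as the only term, for genes averaging 1 TPM or more over 48 libraries; calls needed 1.5-fold and an adjusted p (Benjamini-Hochberg) of 0.05, 2-sided. Tissue levels used TPM as deposited in all normoxia libraries. Rhythms were F tests of a cosine of 24 h on TPM for genes whose maximum reached 1 TPM (Python 3.11.15, scipy 1.17.1). Differences of single rhythm parameters were adjusted over genes rhythmic in at least 1 treatment. Scripts were tested on simulated data. Libraries over 5% of another tissue are those whose median over a marker list exceeds that share of its mean in its own tissue in normoxia. Alternatives covered scaling, pseudocount, filters, further terms, a replicate block, each replicate number left out, and doubtful libraries left out. Leaving out the latter outside the IH comparison, and fitting each replicate number alone, were added after the data were seen.

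The members and lists were chosen with earlier results of these data known. Named genes are the 8 receptors, the up to 2 largest called rises and falls of each signalling and marker list, list genes whose values stand beside a receptor's, and the 3 most alike genes of each receptor.

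Same-numbered normoxia and IH libraries of a tissue and time deviated together in 57 of 144 pairs (r over 0.1, range -0.555 to 0.574), so the numbers were not taken as pairs.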

Additional observations from a re-analysis of the deposited data

Results flagged for a closer look

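Changes with IH that differed between tissues by the interaction test (adjusted p at most 0.05) are listed as differences of log2 changes, the tissue named first less the other. Adrb3 gave 0.74 for lung against muscle, 0.51 for lung against kidney, 1.00 for lung against liver and 0.90 for lung against cerebellum. Adrb1 gave -0.57 for lung against heart, -0.48 for lung against muscle and -0.44 for lung against kidney. Adra1a gave 0.60 for lung against kidney, 0.72 for lung against cerebellum, 0.48 for heart against kidney, 0.60 for heart against cerebellum, 0.39 for muscle against kidney and 0.51 for muscle against cerebellum. Adra1d gave -0.50 for lung against heart and 0.54 for heart against muscle, and Adra1b gave -0.37 for lung against heart. With genes detected as a covariate the lung less heart values turned to 0.68 for Adra1d (adjusted p = 0.0252) and 0.55 for Adra1b (adjusted p = 0.0551) in limma, and to 0.05 for Adrb1 (adjusted p = 0.777). In heart that covariate cannot be separated from treatment. Adra2b gave 1.19 for kidney against cerebellum, and the cerebellar side of that value holds the libraries with other tissues' transcripts.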

How the results depend on the processing

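With TPM only, the reads behind a value are unknown, and pairs of a receptor and a tissue below 1 TPM were not tested in the main fit. Of the alternative values of the counts, 53 stayed within 1.5 times the main one and 11 did not. The exceptions, beside leaving out replicates, were the pairs with an adjusted p of at most 0.05, 7 in the main fit and 4 of 10 tested at a mean of at least 5 TPM and 4 with genes detected as a covariate; the rhythmic sets, 4 in the main fit and 9 when a rank test and the cosine fit were combined; and the tissue differences in response, 17 in the main fit and 9 with the number of genes detected. Leaving out each replicate number gave 1 to 3 called pairs, 4 to 7 pairs at the adjusted p, 2 to 3 rhythmic sets, 9 to 19 differences in response, 106 to 108 of the 111 tissue differences and 0 rhythm differences.

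Replicate numbers were not shown to pair the libraries. With a replicate block the called pairs stayed at 2, the pairs at the adjusted p at 7, the rhythm differences at 0, the tissue differences came to 112, the differences in response to 18 and the rhythmic sets to 9.

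The number of genes detected cannot be separated from treatment in heart, where its ranges did not overlap. Direction turned with genes detected as a covariate for Adra1d in lung (0.65, from -0.01), for Adra1a (-0.13) and Adra1d (-0.02) in heart, and for lung less heart in Adra1b (0.55), Adra1d (0.68) and Adrb1 (0.05). It turned between tissues with the median of ratios for Adra1a, lung less kidney (-0.61) and cerebellum less liver (-0.16), Adra1b, lung less kidney (-0.21), Adra1d, lung less heart (-0.72), Adra2a, lung less muscle (-0.27), and Adrb3, lung less liver (-0.52). The cause was not tested. Of the alternative values of single receptors, 832 kept their side of the threshold, 34 of them with a turn of sign that passed in neither fit, 67 lost and 18 gained significance, and 12 turned with at least 1 fit past the threshold.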
